A study of Mus musculus with 6 samples.

Results

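The genes of 9 transcription factors of the cardiac lineage were followed in RNA from isolated mouse heart muscle cells: the MEF2 factors Mef2a, Mef2c and Mef2d, the GATA factors Gata4 and Gata6, the homeobox factor Nkx2-5, the T-box factors Tbx5 and Tbx20, and the HAND factor Hand2. They were chosen by name, together with the 4 annotated features whose exons overlap theirs on the other strand, giving 13 of the 46078 gene features in each count table. Values of a group are given in the order of its replicates 1, 2 and 3. The cells came from hearts perfused outside the body, in 2 groups: a knockdown of Acly made with MyH6-Cas9 mice (Acly_KD, n = 3) and wildtype cells (control, n = 3). Acly encodes ATP citrate lyase, which makes cytosolic acetyl-CoA, and the comparison asks how gene expression differs when it is reduced. Myh6 is a heart muscle myosin gene, so a Cas9 driven from its promoter is made mainly in heart muscle cells. Whether the controls also carry Cas9, how guides were delivered, and the age of the mice are not given in the sources used here, and they do not say whether each library is a different mouse, so that every p-value rests on a spread which may be technical.

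These factors bind DNA and act together at the enhancers of heart genes. MEF2 proteins are MADS-box factors held in check by class IIa histone deacetylases, GATA4 and GATA6 are zinc finger factors that bind NKX2-5 and TBX5, and HAND2 is a basic helix-loop-helix factor needed for the right ventricle in the mouse embryo. In the adult heart they keep genes of the contractile apparatus and of conduction active, and several are also made in endothelial cells, fibroblasts or smooth muscle.

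Between 271463 and 814765 reads per library were counted in features, 2.81% to 3.07% of the uniquely aligned reads, while 96.7% to 96.9% fell in no feature. The counts look strand-swapped, as if each read had been given to the strand opposite to its transcript, so mRNA of a gene is visible only where an annotated feature lies opposite to its exons. Acly had 0, 0 and 0 reads in the Acly_KD libraries, against 1, 5 and 6 in the controls. A count of 0 allows up to 4.46, 6.52 and 3.75 CPM (reads scaled to the same library total) in the Acly_KD libraries. Under a swapped strand the own row of Acly does not count its mRNA, so the label was not checked on Acly mRNA. Ventricular muscle markers summed at their own rows took 4239, 7955 and 15688 CPM in the Acly_KD libraries and 10468 to 14916 CPM in controls, and 0 of the 10 markers was without reads. Endothelial markers took 41.7, 39.1 and 239 CPM in the Acly_KD libraries, against 90.2 to 155 CPM in controls, with 0 of 8 at no reads. Fibroblast markers lay at 16.4 to 23.9 CPM in Acly_KD and 11.9 to 28.2 CPM in controls, with 0 of 8 without reads. Atrial markers took 35.7 to 56.5 CPM in Acly_KD and 65.0 to 81.0 CPM in controls (Sln and Bmp10 at 0), pericyte and smooth muscle markers 62.5 to 163 CPM in Acly_KD and 114 to 141 CPM in controls, and immune markers 67.4 to 93.7 CPM in Acly_KD and 88.4 to 111 CPM in controls (Ptprc, Adgre1 and Cd3e at 0). Acly_KD replicates 1 and 2 stood below the controls, and Acly_KD replicate 3 above them, in own-row reads of the ventricular and endothelial lists, while all 3 Acly_KD libraries were below the controls for the atrial list. In the opposite-strand reading the ventricular sum, with 8 of 10 markers at 0, was 45032, 45080 and 53036 CPM in the Acly_KD libraries and 48934 to 54143 CPM in controls. The atrial sum there, with 4 of 6 at 0, was 12904, 4688 and 6815 CPM in Acly_KD and 3849 to 9384 CPM in controls. The endothelial, fibroblast and immune lists were given no reads. A marker without an opposite feature cannot be read this way, so a 0 there does not show that a cell type was absent.

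The 9 genes had exonic lengths of 1719 to 15715 bases, and 4 of them had an exon opposite to that of another feature. Mef2d (ENSMUSG00000001419, chromosome 3, 88142372 to 88172086, mm10, forward strand) shared 531 bases of its last exon, all in the 3′ UTR, with the antisense RNA feature 1700113A16Rik (ENSMUSG00000096935). Those bases were 48.5% of the exonic length of 1700113A16Rik, which overlapped no other gene. Gata6 (chromosome 18, 11052064 to 11085635, forward strand) shared 93 bases of an exon at its 5′ end with 1010001N08Rik, a processed transcript feature. Hand2 (chromosome 8, 57320983 to 57324633, forward strand) shared 461 bases with Hand2os1, a long antisense RNA gene also known as upperhand. Mef2a (chromosome 7, 67231163 to 67372858, reverse strand) shared 302 bases with the protein-coding gene Lysmd4. Mef2c (chromosome 13, 83504034 to 83667080), Gata4 (chromosome 14, 63198922 to 63271692), Nkx2-5 (chromosome 17, 26838664 to 26845009), Tbx5 (chromosome 5, 119832668 to 119885219) and Tbx20 (chromosome 9, 24718138 to 24774303) had no exon opposite to theirs, so their mRNA could not be read in these tables.

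**Figure D1:**
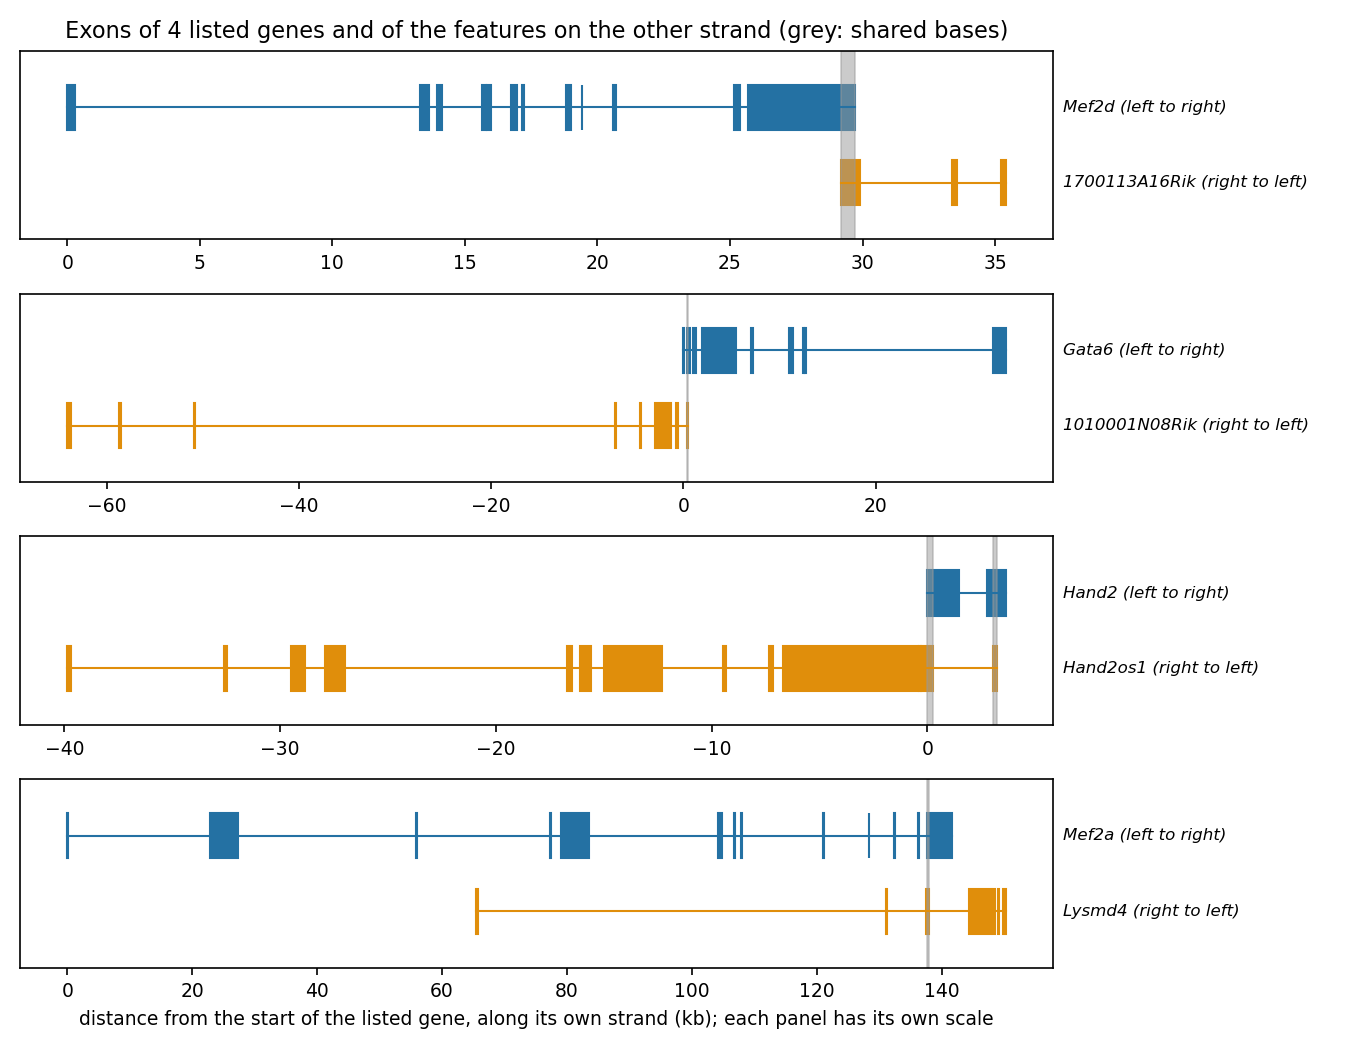
Exons (boxes) of Mef2d, Gata6, Hand2 and Mef2a, in blue, and of the features on the other strand, in orange, by distance from the start of the listed gene along its own strand in kb; each panel has its own scale. Grey bands mark the shared bases, 531 at the end of Mef2d, 93 near the start of Gata6, 461 in 2 stretches of Hand2 and 302 near the end of Mef2a.

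The promoter windows below belong to the locus with the most reads and to the locus where both strands start close together. RefSeq windows on GRCm38.p6, from 250 bases before to 50 after a start, were searched for 6 of the 9 listed genes. They are written 5′ to 3′ along the gene's own strand, and capitals mark matches, on either strand, to any of 7 motifs: AGATAA for GATA factors, AGGTGTG for T-box factors, AAGTGG for NKX factors, CATCTG for HAND factors, TATAAA for the TATA box, CCAAT for the CCAAT box, and the MEF2 consensus by name. Some spellings of the MEF2 consensus hold TATAAA, and no other motif of the list contains another. The windows are Mef2d at chr3:88142122-88142421 (forward strand), 1700113A16Rik at chr3:88177736-88178035 (reverse strand) and Hand2 at chr8:57320733-57321032 (forward strand).
Mef2d: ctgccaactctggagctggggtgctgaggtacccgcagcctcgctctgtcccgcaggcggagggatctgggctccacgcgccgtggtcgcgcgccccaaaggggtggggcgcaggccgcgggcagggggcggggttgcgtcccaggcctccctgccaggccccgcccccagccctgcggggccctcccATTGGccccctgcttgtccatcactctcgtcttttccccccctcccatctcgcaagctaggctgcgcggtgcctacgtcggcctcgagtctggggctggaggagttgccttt
1700113A16Rik: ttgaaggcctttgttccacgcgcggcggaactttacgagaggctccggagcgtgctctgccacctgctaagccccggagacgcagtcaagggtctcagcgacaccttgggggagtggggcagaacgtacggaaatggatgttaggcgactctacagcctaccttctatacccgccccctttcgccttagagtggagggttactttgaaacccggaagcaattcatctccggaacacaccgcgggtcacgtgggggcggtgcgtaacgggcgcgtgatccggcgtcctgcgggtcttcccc
Hand2: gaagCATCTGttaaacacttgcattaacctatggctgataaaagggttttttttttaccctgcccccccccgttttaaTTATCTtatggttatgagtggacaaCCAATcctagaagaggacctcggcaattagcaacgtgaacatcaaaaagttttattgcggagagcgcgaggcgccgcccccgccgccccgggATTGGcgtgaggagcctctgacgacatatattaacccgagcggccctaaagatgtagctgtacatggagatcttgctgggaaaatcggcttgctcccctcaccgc
The Mef2d window was 72.0% G or C and matched only CCAAT, which 37.4% of 32851 promoter windows hold. The 1700113A16Rik window matched no motif and was 61.3% G or C. The Hand2 window was 50.3% G or C and held CCAAT at 2 places, AGATAA, present in 11.2% of windows, and CATCTG, present in 17.2%. The AGATAA match also lies in the window of Hand2os1, at chr8:57320810-57321109 on the reverse strand, since the 2 windows overlap. The MEF2 consensus, found in 0.557% of windows, matched in none of those shown and in 1 window of Mef2a. AGGTGTG stood in 5.84% of windows, AAGTGG in 16.9% and TATAAA in 13.6%. These matches describe letters only. No window of Gata4, Gata6 or Tbx5 was searched, and for Gata6 this does not mean that RefSeq gives none.

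Mef2d was the only one of the 9 genes with many reads, and its level was close in the 2 groups. MEF2D is a MADS-box factor of heart and skeletal muscle. The 1700113A16Rik row held 206, 121 and 202 reads in the Acly_KD libraries, against 81, 256 and 219 reads in the controls. Given to Mef2d and normalised by TMM, these were 575, 552 and 511 CPM in the Acly_KD libraries, against 576, 594 and 597 CPM in the controls. All 3 Acly_KD values lay below the controls, the highest of them by under 1 CPM. The means were 546 ± 32.7 CPM in Acly_KD and 589 ± 11.3 CPM in control (SD, n = 3 each). The log2 fold change was -0.11 (95% interval -0.43 to 0.20, adjusted p = 0.912 by edgeR's quasi-likelihood test). Among the 1453 genes read this way, 14.7% had groups that did not overlap, 6.61% with all 3 Acly_KD libraries below the controls and 8.12% with all 3 above them. Tested as its own row among all features, and normalised with them, 1700113A16Rik averaged 288 ± 32.5 CPM in Acly_KD and 304 ± 10.1 CPM in control, with groups that overlapped (log2 fold change -0.08, 95% interval -0.44 to 0.27, adjusted p = 0.965 in edgeR). Both intervals reach no further than a log2 change of -0.44 on the low side. Reads of Mef2d, and reads of a transcript antisense to the rest of 1700113A16Rik, cannot be told apart in this row.

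The own row of Mef2d held far fewer reads over a longer stretch, 9, 5 and 23 in the Acly_KD libraries, against 7, 11 and 18 in the controls. Under a swapped strand this row counts the strand antisense to Mef2d. The share of these reads among all reads at the pair of rows was 4.19%, 3.97% and 10.2% in the Acly_KD libraries, with Wilson 95% intervals from 1.71% to 14.9% in all, against 7.95%, 4.12% and 7.59% in the controls, with intervals from 2.32% to 15.5%. Acly_KD replicate 3 had the highest share and Acly_KD replicate 2 the lowest, and the groups overlapped. The row's log2 fold change was -0.13 (95% interval -1.26 to 1.00, adjusted p = 0.977 in edgeR). Without Acly_KD replicates 1 and 2, the libraries that stood low, it was 0.48, and its direction also turned when Acly_KD replicate 1 or 2, or control replicate 1 or 3, was left out. The Wilson intervals, and the limits given for counts of 0, cover counting error only.

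Mef2a and Mef2c, the other MEF2 genes measured, had few reads at their own rows. Under a swapped strand these rows count the strand antisense to each gene, and the opposite-strand reading gave the Mef2a row to Lysmd4. Mef2a had 2, 2 and 9 reads at its own row in the Acly_KD libraries, against 4, 14 and 10 reads in the controls. Scaled to library totals these were 2.98, 4.35 and 11.3 CPM in Acly_KD and 14.7, 17.2 and 13.3 CPM in control. The groups did not overlap, and the two-sided exact permutation p was 0.1, below which a test of 3 libraries against 3 cannot go. Among the features tested as deposited, 11.4% had groups apart, 5.56% with Acly_KD lower and 5.83% with Acly_KD higher. Those features passed the filter and were scaled by TMM, unlike the Mef2a row. The row did not pass the filter on low counts, and Acly_KD replicates 1 and 2, with the lowest values, are the libraries that were low in ventricular and endothelial own rows as well; the part of that in the Mef2a values was not tested. Lysmd4, the feature opposite to 302 bases of Mef2a, had 0 reads in all 6 libraries, which allows 0.795 CPM over their summed reads. Mef2c had 0, 0 and 3 reads in the Acly_KD libraries, against 1, 0 and 0 in the controls, which allows no comparison.

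**Figure D2:**
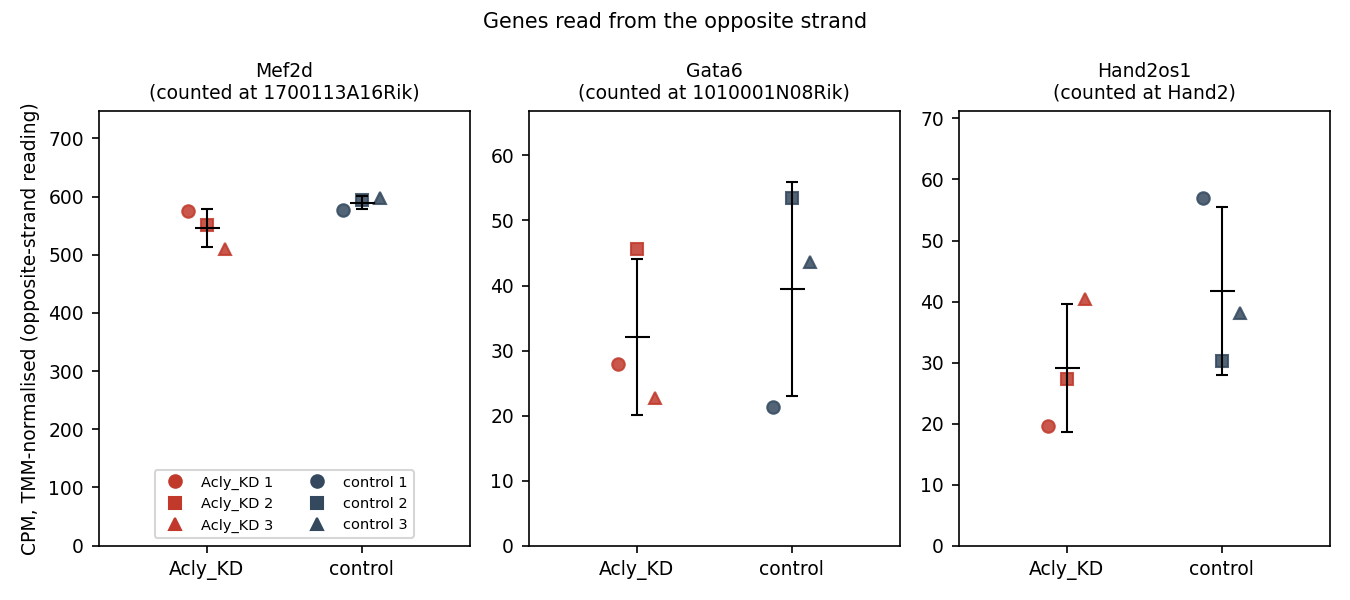
CPM after TMM normalisation, in the opposite-strand reading, of Mef2d, Gata6 and Hand2os1 in each Acly_KD library (red) and control library (dark), with the row in which the reads were counted in brackets; bars are the mean and SD of 3 libraries. Mef2d lies between 511 and 597 CPM in all 6 libraries, while Gata6 and Hand2os1 spread widely within both groups.

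The 2 GATA genes gave no difference that passed a test. GATA4 and GATA6 are both needed for the heart muscle of the mouse embryo. The 1010001N08Rik row, given to Gata6, held 10, 10 and 9 reads in the Acly_KD libraries, against 3, 23 and 16 reads in the controls. These were 27.9, 45.6 and 22.7 CPM in Acly_KD and 21.3, 53.4 and 43.6 CPM in control, so the groups overlapped and the lowest value was that of control 1. The log2 fold change was -0.47 (95% interval -1.46 to 0.52, adjusted p = 0.854 in edgeR), and it ranged from -0.74 to -0.18 with single libraries left out, lowest without Acly_KD replicate 2 and closest to zero without control replicate 2. Without Acly_KD replicates 1 and 2 it was -0.94. Only 93 of the 3035 exonic bases of 1010001N08Rik lie opposite to Gata6, so how much of these reads is Gata6 mRNA cannot be told. The own row of Gata6 held 3, 4 and 7 reads in the Acly_KD libraries, against 2, 20 and 3 in the controls (exact permutation p = 0.9, two-sided). Of the 25 control reads, 20 came from control replicate 2. At its own row Gata4 had 1, 0 and 5 reads in Acly_KD, against 0, 8 and 0 in control (exact permutation p = 1.0, two-sided). That row was near the limit of detection in both groups, and Gata4 mRNA could not be read in these tables.

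At Hand2, the row named for the gene carried reads and the row of its antisense RNA carried almost none. The Hand2 row held 7, 6 and 16 reads in the Acly_KD libraries, against 8, 13 and 14 reads in the controls. In the swapped reading these belong to the strand of Hand2os1, an antisense RNA whose locus is needed for Hand2 expression in the mouse heart. Read so, Hand2os1 had 19.5, 27.4 and 40.4 CPM in the Acly_KD libraries and 56.9, 30.2 and 38.2 CPM in the controls, with groups that overlapped. The log2 fold change was -0.40 (95% interval -1.42 to 0.62, adjusted p = 0.904 in edgeR), and without Acly_KD replicates 1 and 2 it was 0.04. Only 461 of the 2351 exonic bases of Hand2 lie opposite to Hand2os1 exons, so how much of these reads is Hand2os1 RNA cannot be told. As deposited, the Hand2 row had a log2 fold change of -0.41 (95% interval -1.52 to 0.70, adjusted p = 0.965 in edgeR). The Hand2os1 row, in which Hand2 mRNA would be counted over 461 bases, held 1 read in all, in control replicate 2. No source used here gives the annotation release behind the counts, so whether these bases were part of the Hand2os1 feature, or the 302 bases part of Lysmd4, is not known.

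Nkx2-5, Tbx5 and Tbx20 were seen only at their own rows, with 16, 17 and 20 reads in all. NKX2-5 is the homeobox factor of the early heart field, TBX5 acts in atrial and septal development and conduction, and TBX20 acts in chamber muscle and the valves. Nkx2-5 had 0, 0 and 4 reads in the Acly_KD libraries, against 0, 7 and 5 in the controls (exact permutation p = 0.4, two-sided). Tbx5 had 1, 0 and 6 reads in the Acly_KD libraries, against 2, 3 and 5 in the controls (exact permutation p = 0.4, two-sided). Tbx20 had 1, 2 and 9 reads in the Acly_KD libraries, against 1, 6 and 1 in the controls (exact permutation p = 0.6, two-sided). In each of these 3 genes the groups overlapped, and most Acly_KD reads came from replicate 3. In all, 6 own rows were tested by permutation.

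**Figure D3:**
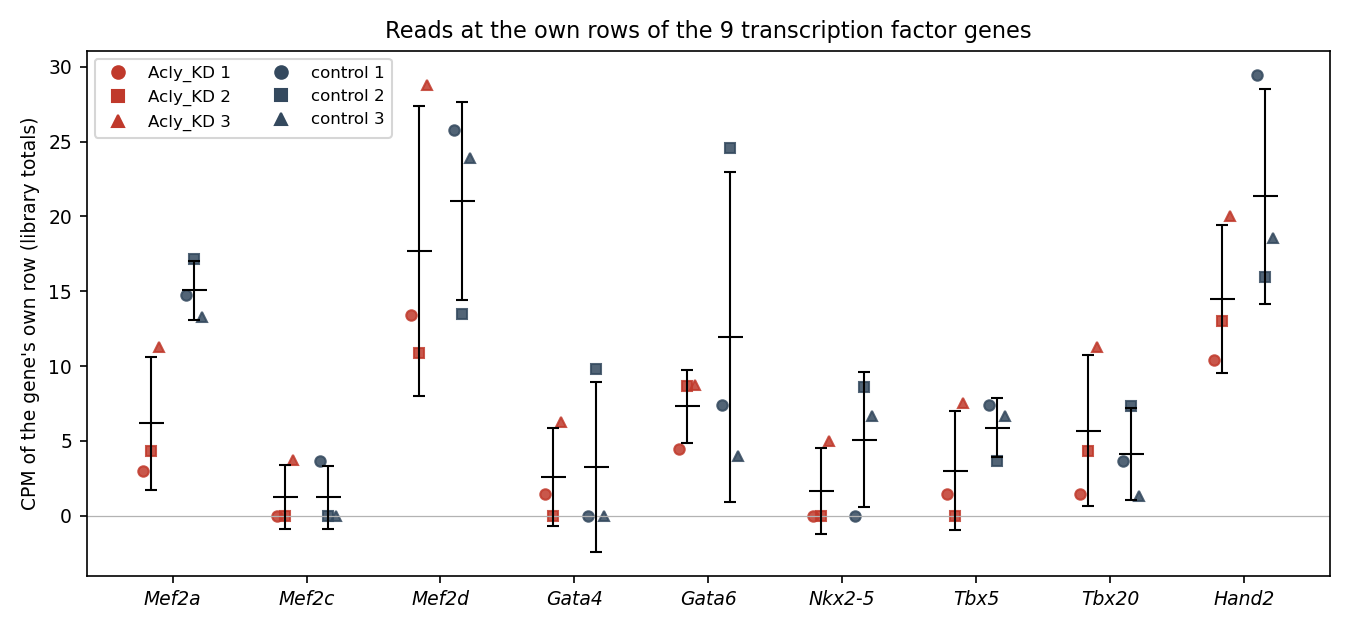
CPM, scaled to library totals, at the own row of each of the 9 genes in the Acly_KD libraries (red) and control libraries (dark), with the mean and SD of 3 libraries. Acly_KD replicate 3 lies above both other Acly_KD libraries for 9 of 9 genes, though for Gata6 only at 8.75 against 8.69 CPM in Acly_KD replicate 2. The share of all features with this order was not worked out, so it is not shown to be particular to these genes. The groups are apart only for Mef2a.

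Per kilobase of exon, the own-row levels over the 6 libraries ran from Hand2, at 7.62 ± 2.84 CPM per kb (SD, n = 6), through Mef2d at 3.24 ± 1.28, Nkx2-5 at 1.96 ± 2.25, Gata6 at 1.48 ± 1.17, Tbx5 at 0.951 ± 0.688, Gata4 at 0.750 ± 1.06, Mef2a at 0.724 ± 0.392 and Tbx20 at 0.409 ± 0.318, to Mef2c at 0.0788 ± 0.122 CPM per kb. Of neighbours in this order, Hand2 and Mef2d were apart by more than the sum of their SDs, and the others were not. The row of 1700113A16Rik stood at 263 ± 22.5 CPM per kb. These are levels on the counted strand and cannot be taken as levels of mRNA.

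Summed over the 9 own rows, reads numbered 24, 19 and 82 in the Acly_KD libraries, against 25, 82 and 56 in the controls. Scaled to library totals, the sums were 35.7, 41.3 and 103 CPM in the Acly_KD libraries, against 92.1, 101 and 74.3 CPM in the controls. Acly_KD replicates 1 and 2 were the lowest of the 6 libraries and Acly_KD replicate 3 the highest. The log2 ratio of the group means was -0.57, without Acly_KD replicate 3 it was -1.21, and with Acly_KD replicates 1 and 2 left out it was 0.20. Nuclear features with no opposite-strand exons took 3.35%, 4.27% and 6.70% of the counts in the Acly_KD libraries and 6.26%, 6.55% and 5.16% in the controls, with Acly_KD replicates 1 and 2 again lowest. Scaled to the reads of those features, the sums were 1066, 968 and 1530 CPM of those reads in Acly_KD and 1471, 1537 and 1439 CPM in control, and the log2 ratio was -0.32. These sums are levels on the counted strand and cannot be taken as levels of mRNA, so they measure neither cell numbers nor RNA per cell. Fewer cells of a type and less RNA per cell could also not be told apart in such bulk samples. The cause of the pattern was not tested.

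**Figure D4:**
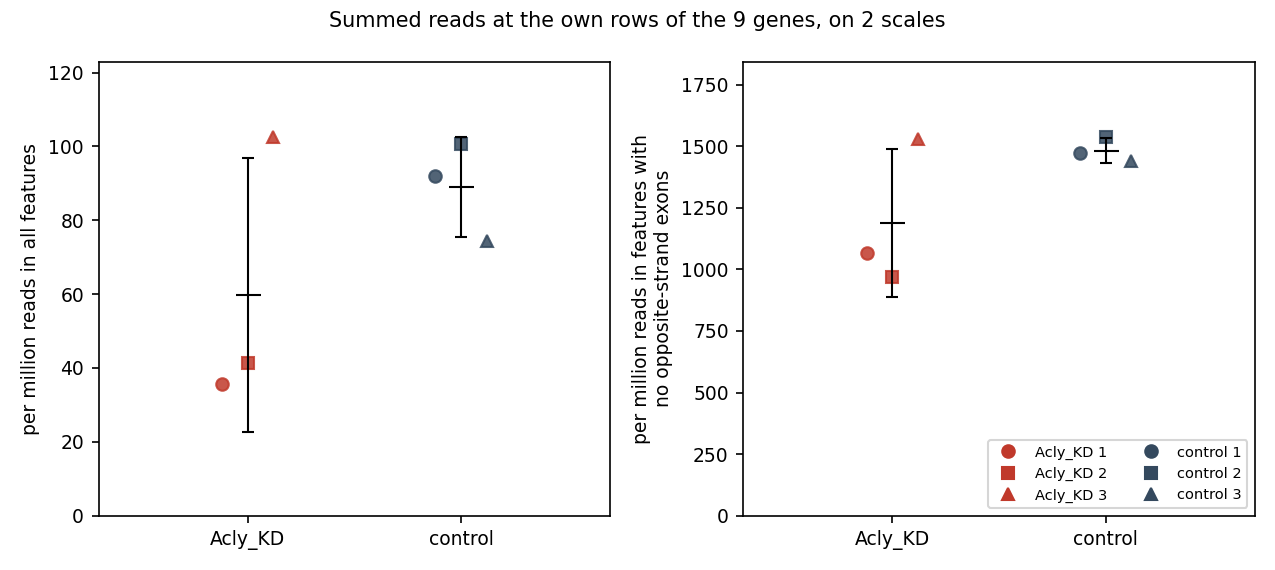
Summed reads at the own rows of the 9 genes as CPM of all feature reads (left) and as CPM of the reads in features with no opposite-strand exons (right), for each Acly_KD library (red) and control library (dark), with the mean and SD of 3 libraries. Acly_KD replicates 1 and 2 are the lowest on both scales, at 35.7 and 41.3 on the left and at 1066 and 968 on the right.

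In the fits across all features, 4 of the 13 rows passed the filter as deposited, and 0 of the 4 passed the test by edgeR, where 0.0% of 2952 features did. At an unadjusted p under 0.05 there were 0 of these rows and 180 of all features, and DESeq2's test and limma-voom also called 0 features. In the opposite-strand reading 3 rows were tested, Mef2d, Gata6 and Hand2os1, and 0 passed by edgeR, where 0.413% of 1453 genes did, 0.206% higher and 0.206% lower in Acly_KD; 0 of the 3 had an unadjusted p under 0.05. All 7 log2 fold changes, of which 3 pairs are the same reads in both fits, lay below zero. So did 1607 of all 2952 features as deposited and 719 of all 1453 genes in the opposite-strand reading. The medians of all rows tested were -0.04 as deposited and 0.01 in the opposite-strand reading.

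Partners, regulators and targets of these factors were read from lists. Of 34 other heart transcription factors and cofactors, 6 were tested in the opposite-strand reading, with 4 above and 2 below zero and a median log2 fold change of 0.06. Mrtfb, a coactivator of serum response factor, was the 1 that passed, at 176, 54.7 and 104 CPM in the Acly_KD libraries and 42.7, 30.2 and 19.1 CPM in the controls (log2 fold change 2.00, 95% interval 1.10 to 2.90, adjusted p = 0.0422 in edgeR). It did not pass by DESeq2's test, by limma-voom, with scaling to all uniquely aligned reads, or without Acly_KD replicate 1 or any single control. Mrtfb was not tested when a feature had to share at least 200 bases with a single opposite gene. Hopx, a homeodomain protein that restrains serum response factor and was picked here after its values were seen, had 2902, 3455 and 3753 CPM in the Acly_KD libraries, against 4083, 4147 and 4171 CPM in the controls. The groups were apart, but the log2 fold change of -0.30 (SE 0.12) had an adjusted p of 0.408 in edgeR. As deposited, 2 of the 34 were tested and 0 passed: Smyd1, a muscle methyltransferase, at -0.39 (95% interval -1.91 to 1.13), and Hopx at -0.24 (95% interval -1.25 to 0.76), both with an adjusted p of 0.965 in edgeR.

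Of 10 class IIa histone deacetylases and other MEF2 regulators, 1 was tested in the opposite-strand reading and 0 as deposited. Hdac4, a repressor of MEF2, had 22.3, 100 and 93.5 CPM in the Acly_KD libraries and 78.3, 116 and 65.4 CPM in the controls, with overlapping groups and a log2 fold change of -0.33 (95% interval -1.26 to 0.60, adjusted p = 0.914 in edgeR). Acly_KD replicate 1 was far below the other 5 libraries, and without it the log2 fold change was 0.12.

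Of 25 genes known as targets of these factors, 7 were tested in the opposite-strand reading and 0 passed, with 4 above and 3 below zero and a median of 0.03. Ttn, which encodes the sarcomere spring titin, had 2466, 2712 and 1923 CPM in the Acly_KD libraries, against 1359, 1630 and 1731 CPM in the controls, with groups apart and a log2 fold change of 0.58 (95% interval 0.29 to 0.87, adjusted p = 0.0731 in edgeR). At its own row as deposited Ttn stood at -0.40 (adjusted p = 0.965 in edgeR). In the opposite-strand reading it passed when library totals set the scale, with no filter, and without Acly_KD replicate 3. Ckm, the muscle creatine kinase, had a log2 fold change of -0.20 (95% interval -0.37 to -0.02, adjusted p = 0.471 in edgeR). As deposited, 18 of the 25 were tested and 0 passed, with 2 above and 16 below zero and a median of -0.38, against -0.04 over all features. Myl2, the ventricular myosin light chain, had 206, 386 and 766 CPM in the Acly_KD libraries, against 736, 851 and 554 CPM in the controls (log2 fold change -0.65, adjusted p = 0.959 in edgeR). As in the summed transcription factor rows, Acly_KD replicates 1 and 2 were the lowest, and Myl2 passed without Acly_KD replicate 3, at -1.25; in the opposite-strand reading Myl2 stood at 0.11 (95% interval -0.18 to 0.41). Myh7, the slow myosin heavy chain, had a log2 fold change of -0.52 (95% interval -0.90 to -0.14, adjusted p = 0.579 in edgeR), with groups that did not overlap, as for 11.4% of features as deposited. Read from the opposite strand, Myh7 had 6694, 5014 and 6443 CPM in the Acly_KD libraries and 6993, 10226 and 29362 CPM in the controls, with groups apart and control replicate 3 far above the rest (log2 fold change -1.36, 95% interval -3.08 to 0.36, adjusted p = 0.621 in edgeR).

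**Figure D5:**
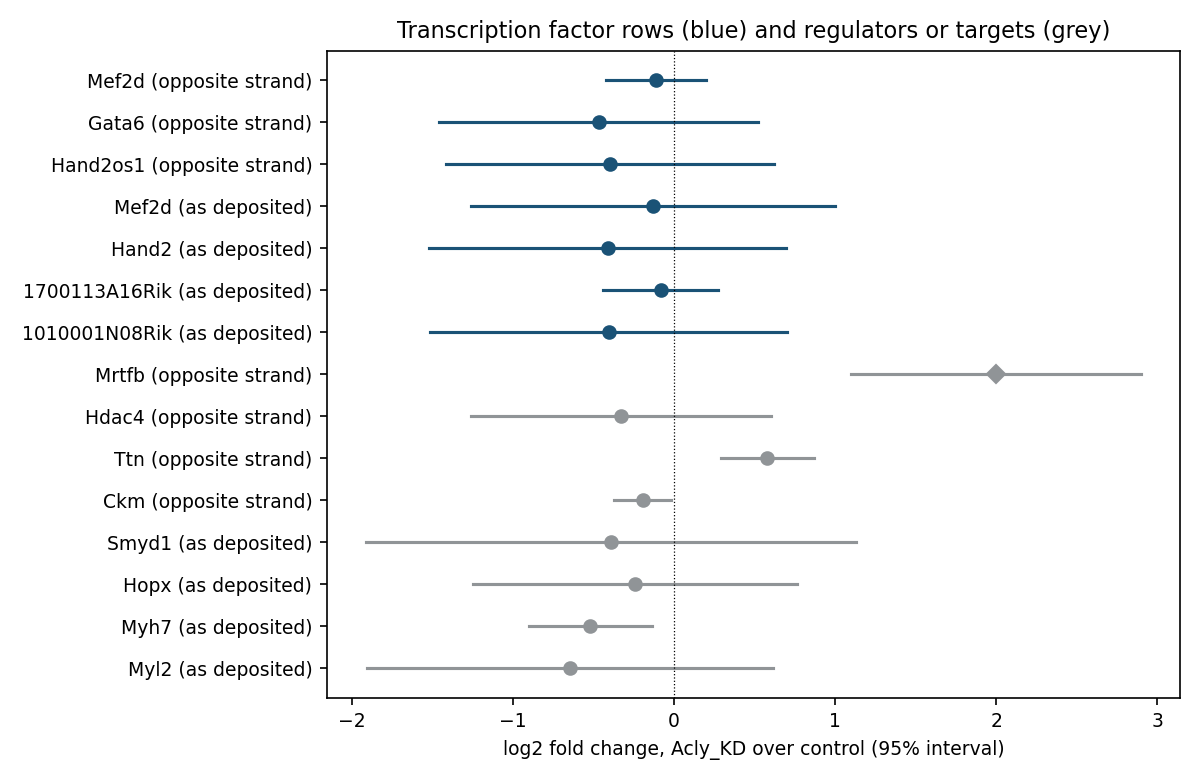
Log2 fold changes of Acly_KD over control with 95% intervals, for the tested transcription factor rows (blue) and the named regulators and targets (grey), in the opposite-strand reading or as deposited; the diamond passed the test at an adjusted p under 0.05. The interval of Mef2d in the opposite-strand reading, -0.43 to 0.20, is the narrowest among the blue rows, and all 7 blue intervals span zero.

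The rows most like that of Mef2d were sought by the root mean square difference of log2 CPM over the 6 libraries, each row centred on its own mean. In the opposite-strand reading the 3 nearest of 1453 genes were Eif3d (0.03), Tmod1 (0.04) and Abhd11 (0.05), where the median gene was at 0.30. For 1700113A16Rik as deposited they were Gm17638 (0.03), Tstd2 (0.04) and B130046B21Rik (0.05) among 2952 features, with a median of 0.38.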

How the data were processed

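Poly-A RNA was read as paired ends from strand-marking libraries, per the labels' protocols. The deposited values are raw read counts for each gene identifier. FastQC, TopHat2, SAMtools, HTSeq, DESeq2 and mm10 appear, with no versions, in the submitters' processing notes; no source used here gives the strand setting. Rows that name no gene, 97.4% to 97.7% of all entries of a library, stayed out. Opposite-strand overlaps came from GENCODE M21.

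The counts went into edgeR 4.0.16 (R 4.3.3) with TMM scaling and its filterByExpr filter (minimum 10 counts); the quasi-likelihood fit was the robust one, and p-values were adjusted by Benjamini-Hochberg, with a threshold of 0.05. Fits were made as deposited and in an opposite-strand reading. In the second, a nuclear feature passed its counts to 1 gene that held at least 80% of the exonic bases lying opposite to it, and at least 50 bases, provided that this gene was not counted or had the lower count. CPM at own rows use library totals. Rows outside the filter with at least 10 reads had a permutation test; a count of 0 was given a limit of 3 counts. Replicates of a group differed by more than counting noise (chi-square per degree of freedom 3.43 to 10.1). Simulated counts with 200 changed genes recovered 23.9% of 2-fold changes as deposited (2952 features) and 59.7% in the opposite-strand reading (1453 genes). Members and lists were chosen with earlier results of these data known. The named list members are those past the threshold or, where none passed, the 2 with the smallest p. Alternatives were DESeq2 1.42.0, limma-voom (limma 3.58.1), other scales and filters, a replicate block and left-out libraries.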

Additional observations from a re-analysis of the deposited data

How the results depend on the processing

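Mef2d in the opposite-strand reading kept its direction and did not pass in any of the 18 alternatives, at log2 fold changes of -0.24 to -0.06 and adjusted p of 0.785 to 1.00 (edgeR, DESeq2 or limma). The other 6 transcription factor rows that passed the filter, 4 as deposited and Gata6 and Hand2os1 in the opposite-strand reading, did not pass in their alternatives either; own rows outside the filter were not followed across alternatives. Reads limit the rest: the own rows held at most 23 reads per library.

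As deposited, edgeR called 0 features, 3 with no filter and 36 with Acly_KD replicates 1 and 2 both left out, and 0 to 69 with single libraries left out, the 69 without Acly_KD replicate 3. In the opposite-strand reading it called 6 genes, 2 with scaling to all uniquely aligned reads, 30 with no filter, 12 with the replicate block and 2 without Acly_KD replicates 1 and 2, and 1 to 20 with single libraries left out, the 20 again without Acly_KD replicate 3. Of the regulator and target lists, 0 members were called as deposited, and 0 to 4 with single libraries left out. In the opposite-strand reading 1 was called, 2 with library totals, no filter or the replicate block, 0 with scaling to all uniquely aligned reads, DESeq2's test, limma-voom, 200 shared bases with a single gene, or Acly_KD replicates 1 and 2 left out, and 0 to 2 with single libraries left out. With scaling to all uniquely aligned reads, the median of all features as deposited was -0.14, against -0.04.

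Directions turned as follows. With Acly_KD replicates 1 and 2 both left out, an alternative chosen after the data were seen that leaves 1 Acly_KD library assumed to vary like the controls, the log2 ratio of the summed own rows was 0.20, and the log2 fold changes were 0.48 for the Mef2d row, 0.68 for Smyd1, 0.57 for Hopx and 0.10 for Myl2 as deposited, and 0.0429 for Hand2os1 and 0.0497 for Hdac4 in the opposite-strand reading. 1700113A16Rik as deposited was 0.0206 with no filter. With single libraries left out, the ranges were -0.58 to 0.0787 for the Mef2d row, -0.16 to 0.0649 for 1700113A16Rik, -1.54 to 0.30 for Smyd1, -1.04 to 0.11 for Hopx, -0.67 to 0.12 for Hdac4 and -1.21 to -0.31 for the summed own rows. The cause was not tested.

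Replicate numbers did not pair the libraries: deviations of same-numbered libraries from their group means correlated at -0.18 to -0.02 as deposited and -0.04 to -0.02 in the opposite-strand reading. With the replicate block, Mef2d was at -0.12 and did not pass, and Ttn, at 0.58, passed.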
